A study of Mus musculus with 11 samples.

Results

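The D cyclins and the inhibitors of their kinases were examined in mouse mammary tumour cells before, during and after regression of a cancer driven by Wnt1. The 9 genes were taken by symbol: the D cyclins Ccnd1, Ccnd2 and Ccnd3, the CIP/KIP inhibitors Cdkn1a, Cdkn1b and Cdkn1c, and the INK4 inhibitors Cdkn2a, Cdkn2b and Cdkn2c. All 9 had a measured row among 23835 named genes. Each row was 1 probe set, named by its Entrez Gene identifier and matched to its symbol.

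D cyclins are made in response to growth signals and bind the kinases CDK4 and CDK6, which phosphorylate the retinoblastoma protein RB and release E2F factors to start replication. INK4 proteins bind CDK4 and CDK6 and keep cyclin D away. CIP/KIP proteins block the CDK2 complexes that act next, and they also sit on cyclin D complexes and help to assemble them. In the mammary gland cyclin D1 is the best known of the cyclins, since it is needed for alveolar growth and is often raised in breast cancer.

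RNA was measured on 11 Affymetrix arrays. All groups held cells with the transgenes MMTV-rtTA and TetO-Wnt1, which make Wnt1 expression depend on doxycycline in mammary epithelium, and with H2B-eGFP, a fluorescent histone used as a label. They were implanted at the orthotopic site of nu/nu females, mice that have no thymus but keep other immune cells, and the titles describe the isolated cells as GFP positive. There were 4 arrays of untreated primary tumours grown on doxycycline, 3 arrays of residual lesions taken 28 days after doxycycline withdrawal, and 4 arrays of tumours that recurred after withdrawal. The sources used here do not give the age of the mice. The series title calls the cells Wnt1-Prim1. Whether replicate arrays came from different mice is not stated, so p-values measure only the spread among the arrays, and part of it may be technical.

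Values are log2 signals. The 95th percentile of 1066 olfactory receptor genes, a class not known to be used by mammary cells, was 3.96 to 4.38 across arrays and served as the upper edge of background. Wnt1 read 2.89 to 3.26 and lay under that edge on all 11 arrays. Its probes may not match the transgene, so it does not check the withdrawal. Array medians were 4.35 to 4.45. In primary cells Krt8 and Krt18, keratins of simple epithelium, read 10.08 ± 0.07 and 10.42 ± 0.19 (mean ± SD, n = 4), whereas Epcam, an epithelial adhesion protein, read 3.29 ± 0.13, within background. In residual cells Epcam read 4.62 ± 1.48 (n = 3). Of 16 epithelial markers 8 to 9 were above background on the primary arrays. On the same arrays 13 to 15 of 18 fibroblast and 13 to 15 of 15 macrophage markers were above background. Whether this RNA came from other cells or from the GFP-positive tumour cells was not tested.

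After doxycycline withdrawal the 9 genes split into those that fell and those with no called change. In residual cells Ccnd1, Cdkn1a and Cdkn2c fell 12.5-fold, 4.33-fold and 3.34-fold below primary cells, and in recurrent cells the same 3 genes stood 9.08-fold, 3.10-fold and 2.00-fold above residual cells. The levels of the other 6 genes were not called different in any comparison. Against primary cells, 0 of 9 genes were called in recurrent cells, where 1.8% of all genes were called. Calls were made with limma at a Benjamini-Hochberg adjusted p under 0.05 over all 23835 genes, and the comparisons share arrays, so a low or high residual group enters both of its comparisons.

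**Figure D1:**
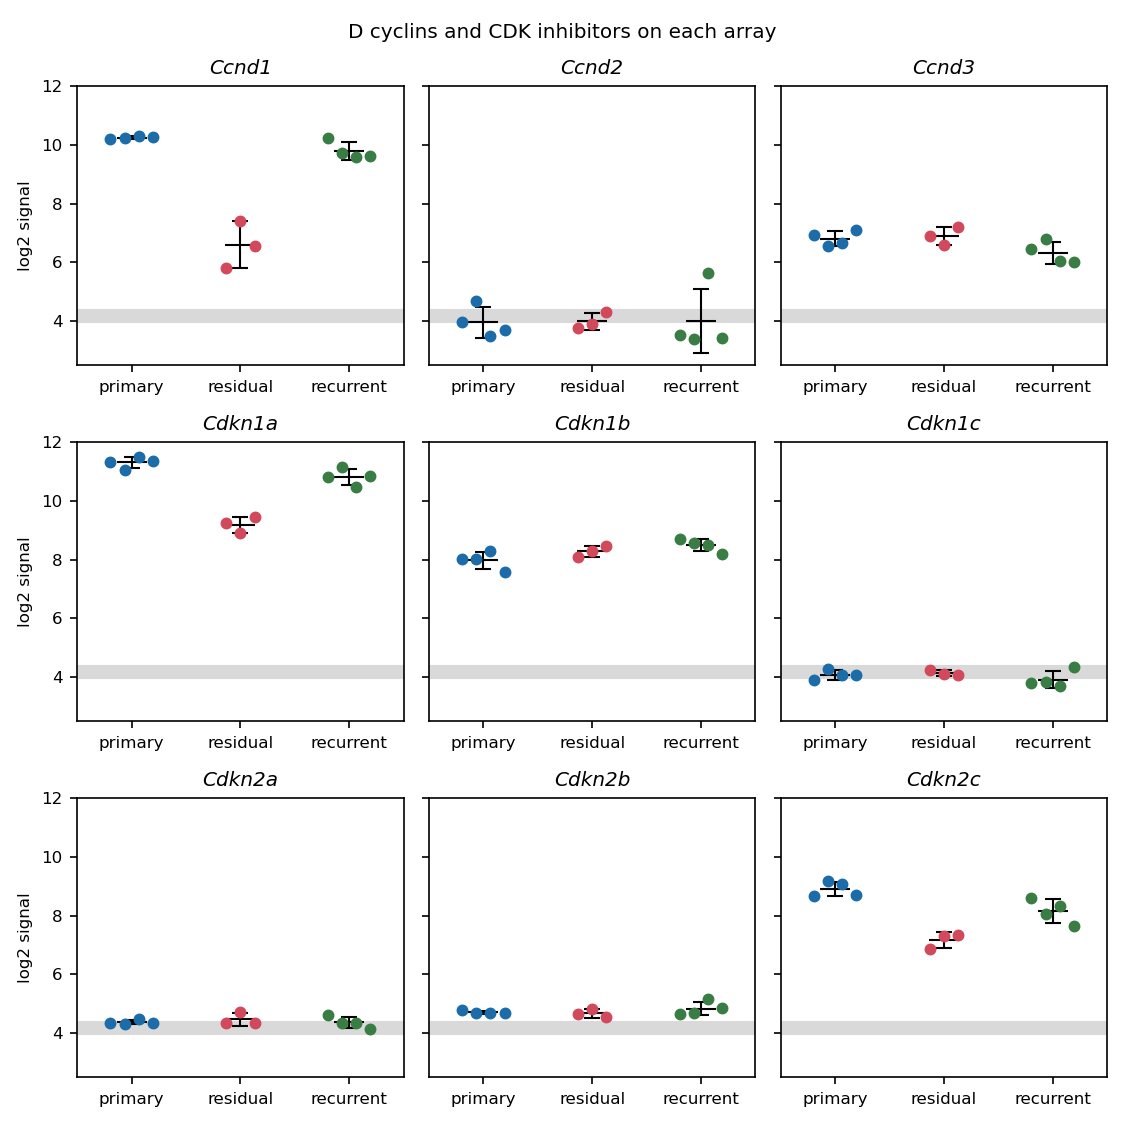
Log2 signal of the 9 genes on each array, by group (4 primary, 3 residual and 4 recurrent arrays). Points are arrays, bars are the mean ± SD, and the grey band spans the 95th percentiles of olfactory receptor genes (3.96 to 4.38). Ccnd1, Cdkn1a and Cdkn2c have residual points below all points of both other groups, whereas Ccnd2, Cdkn1c and Cdkn2a lie at or near the grey band.

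In residual against primary cells 3 of the 9 genes fell and 0 rose, where 12.4% of all genes were called, 7.61% lower and 4.81% higher. Only these 3 of the 9 had separate ranges, beside 24.8% of all genes. With arrays centred on their medians the split over all genes was 2333 lower and 899 higher, in place of 1814 and 1146. In recurrent against residual cells 3 of 9 genes rose and 0 fell, where 5.78% of all genes were called, 3.58% higher and 2.19% lower, and 3 of 9 had no overlap beside 15.5% of all genes. In recurrent against primary cells 1.80% of all genes were called, 0.818% higher and 0.986% lower. At an unadjusted limma p under 0.05, 13.6% of all genes passed there and 4 of the 9, namely Ccnd3, Cdkn1a, Cdkn1b and Cdkn2c. The median change of the 9 genes was 0.03 in residual and -0.16 in recurrent against primary cells, beside 0.03 and -0.01 over all genes. Between recurrent and residual cells it was 0.17, beside -0.03.

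Ccnd1 encodes cyclin D1. It read 10.20, 10.23, 10.30 and 10.27 on the primary arrays, 5.81, 7.42 and 6.57 on the residual arrays and 10.24, 9.71, 9.58 and 9.60 on the recurrent arrays. The primary arrays lay within 0.10 of each other, the residual arrays spanned 1.61, and no residual array reached the range of another group. Ccnd1 fell by 3.65 in residual cells (log2 fold change, SE 0.30, limma adjusted p = 1.96e-05) and was higher by 3.18 in recurrent than in residual cells (SE 0.30, adjusted p = 9.56e-05). All 3 residual arrays remained above background. The order was primary, recurrent, residual, and the first neighbours in it did not differ by test (-0.47, 95% interval -1.07 to 0.14, adjusted p = 0.522), with recurrent replicate 1 inside the primary range and the other recurrent arrays under it.

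The residual array with the highest Ccnd1, replicate 2, also had the highest mean of 16 epithelial markers, 6.29 against 5.21 and 5.31 on the other residual arrays. It also had the highest macrophage mean (6.10 against 5.28 and 5.42), the highest proliferation mean (5.37 against 5.18 and 5.09) and the lowest fibroblast mean (8.34 against 8.72 and 9.41). Cdkn1a, in contrast, was lowest on that array (8.89 against 9.23 and 9.44), and Cdkn2c lay between the other residual arrays (7.31 against 6.86 and 7.33). Ranks among 3 arrays are given as a description only. Without residual replicate 2 the fall of Ccnd1 was still called, and over the 22 alternatives the change ran from -4.06 to -3.25. Each array measured the RNA of many cells together, so fewer cells of a type and less RNA per cell cannot be told apart in any of these values.

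For Ccnd2, cyclin D2, primary arrays read 3.99, 4.69, 3.49 and 3.71, residual arrays 3.77, 3.90 and 4.32, and recurrent arrays 3.54, 3.39, 5.64 and 3.44. It was above background on 1 primary and 1 recurrent array and on 0 residual arrays. Recurrent replicate 3 stood alone, and the group means of 3.97 to 4.00 could not be put in an order beyond the spread of the arrays. The difference of residual from primary cells was 0.03 with a 95% interval of -1.05 to 1.11, so a change of up to about 2-fold either way was within the precision. Ccnd3, cyclin D3, was above background on all arrays with primary arrays at 6.93, 6.57, 6.66 and 7.09, residual arrays at 6.91, 6.60 and 7.21, and recurrent arrays at 6.47, 6.79, 6.06 and 6.002. The primary and residual ranges overlapped (difference 0.09, interval -0.39 to 0.57, adjusted p = 0.85). Recurrent cells lay lower, but the differences from primary (-0.48, adjusted p = 0.315) and residual cells (-0.57, adjusted p = 0.169) were not called.

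**Figure D2:**
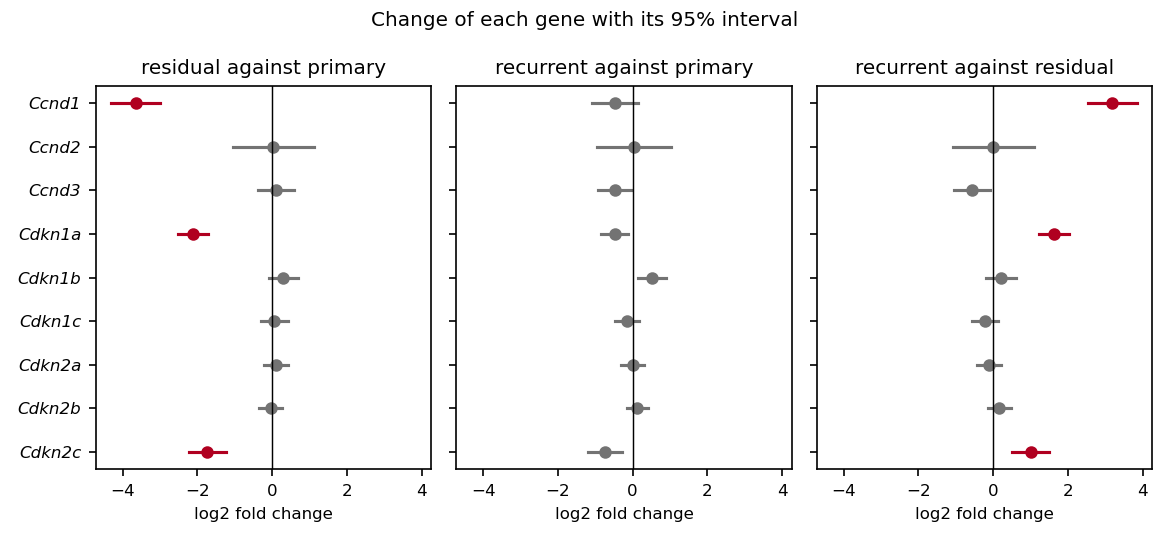
Log2 fold change of each gene in the 3 comparisons. Points are limma estimates, lines are 95% intervals, and red marks an adjusted p under 0.05. Red points are those of Ccnd1, Cdkn1a and Cdkn2c in both comparisons with residual cells, to the left of 0 against primary cells and to the right in recurrent cells.

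Among the CIP/KIP inhibitors the change was in Cdkn1a, which encodes p21, the inhibitor through which p53 stops the cell cycle. Primary arrays read 11.32, 11.05, 11.47 and 11.37, residual arrays 9.23, 8.89 and 9.44, and recurrent arrays 10.81, 11.15, 10.48 and 10.84. The residual arrays lay below all others, and the primary and recurrent ranges met at 11.05 to 11.15. The fall in residual cells was 2.12 (SE 0.18, limma adjusted p = 2.80e-05), and recurrent cells were higher than residual cells by 1.63 (SE 0.18, adjusted p = 0.000328). Recurrent cells stood under primary cells by a difference of -0.49 that was not called (95% interval -0.86 to -0.11, adjusted p = 0.207).

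Cdkn1b encodes p27, which restrains the entry of resting cells into the cycle and is held mainly by protein turnover. Primary arrays read 8.03, 8.03, 8.28 and 7.59, residual arrays 8.09, 8.29 and 8.47, and recurrent arrays 8.71, 8.57, 8.50 and 8.20. From low to high the means stood in the order primary, residual, recurrent, but each neighbouring pair of ranges overlapped. The difference was 0.30 for residual against primary cells (interval -0.10 to 0.70, adjusted p = 0.338) and 0.51 for recurrent against primary cells (interval 0.15 to 0.88, adjusted p = 0.172). Cdkn1c, the imprinted gene of p57, spanned 3.90 to 4.28 on primary, 4.06 to 4.24 on residual and 3.70 to 4.34 on recurrent arrays. It was above background on 3 primary, 0 residual and 1 recurrent array. The background edge itself was higher on residual arrays (4.34 to 4.38) than on primary arrays (3.96 to 4.02), while the mean of Cdkn1c was 4.08 in primary and 4.14 in residual cells, so these counts show no fall, and no comparison was called (adjusted p = 0.864, 0.731 and 0.521).

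Among the INK4 inhibitors, Cdkn2c, the gene of p18, was at 8.68, 9.17, 9.07 and 8.71 on primary, 6.86, 7.31 and 7.33 on residual, and 8.60, 8.07, 8.34 and 7.66 on recurrent arrays. The groups stood in the order primary, recurrent, residual with no overlap between any of them. Residual cells were lower than primary cells by a log2 fold change of -1.74 (SE 0.23, limma adjusted p = 0.000477). Recurrent cells were higher than residual cells by 1.00 (SE 0.23, adjusted p = 0.0245). That call was lost when only these groups were fitted (adjusted p = 0.08) and without residual replicate 1 (0.094), residual replicate 2 (0.0513) or recurrent replicate 3 (0.0603), within a range of 0.00919 to 0.094 over the 22 alternatives, while the change itself ran from 0.85 to 1.17. Recurrent against primary cells gave -0.74, which was not called (adjusted p = 0.114), and 9.02% of all genes had no overlap between these groups.

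Cdkn2a makes p16 and, from another first exon and reading frame, p19ARF, an activator of p53. Its single probe set does not separate them here. It was at 4.35, 4.32, 4.48 and 4.34 on primary, 4.35, 4.73 and 4.35 on residual, and 4.63, 4.35, 4.35 and 4.15 on recurrent arrays, close to the upper edge of background. Primary replicate 1, residual replicates 1 and 3 and recurrent replicates 2 and 3 held exactly the same value, so the spread of Cdkn2a rests partly on ties. Cdkn2b, the gene of p15, an INK4 inhibitor induced by TGF-beta, spanned 4.69 to 4.79 on primary, 4.54 to 4.83 on residual and 4.65 to 5.16 on recurrent arrays and was above background on all arrays. The groups overlapped for both genes, and the intervals of the residual difference were -0.21 to 0.42 for Cdkn2a and -0.35 to 0.27 for Cdkn2b. RMA values compress differences at such levels, so a change in transcript number could exceed these intervals.

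Mtap, which lies beside Cdkn2a and encodes an enzyme of methionine salvage, was well above background with means of 8.46 ± 0.09 for primary, 6.78 ± 0.36 for residual and 7.82 ± 0.52 for recurrent arrays (SD, n = 4, 3 and 4). It fell by 1.68 in residual cells (limma adjusted p = 0.00135) and was higher in recurrent than residual cells by 1.04 (adjusted p = 0.0352). On the other side, Dmrta1, a DM-domain transcription factor gene, spanned 4.25 to 4.88 on primary, 5.30 to 5.77 on residual and 5.40 to 6.19 on recurrent arrays and rose in recurrent against primary cells by 0.99 (adjusted p = 0.0407), with residual against primary cells just outside the threshold (adjusted p = 0.0501). The genes on both sides of Cdkn2a and Cdkn2b thus gave differences between groups while neither inhibitor gene was called in any comparison.

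**Figure D3:**
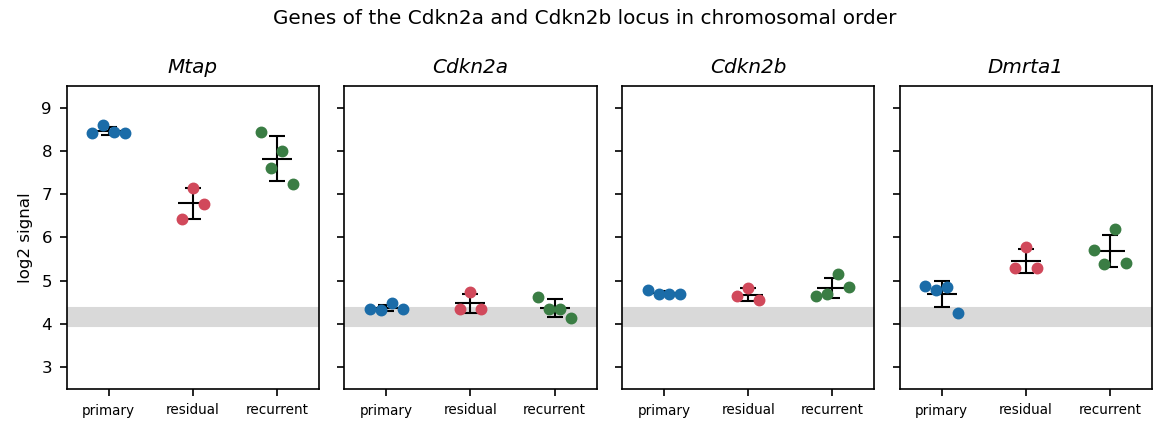
Log2 signal of Mtap, Cdkn2a, Cdkn2b and Dmrta1, in their order along the chromosome, on each array (points), with the mean ± SD of each group and the grey band of olfactory 95th percentiles (3.96 to 4.38). Mtap is at 8.41 to 8.59 on the primary arrays, while Cdkn2a lies at the band in all groups.

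Promoters of the called inhibitors are shown because Cdkn1a and Cdkn2c moved together, with Cdkn1b as a member of the CIP/KIP family that was not called. RefSeq start sites of build GRCm38.p6 gave 10 windows for 6 of the 9 genes, Ccnd3, Cdkn1a, Cdkn1b, Cdkn2a, Cdkn2b and Cdkn2c. The 250 bases before the start site are printed 5′ to 3′ on the gene's strand, and capitals mark motif matches.
Cdkn1a, upstream start site, chr17:29090729-29090978, + strand: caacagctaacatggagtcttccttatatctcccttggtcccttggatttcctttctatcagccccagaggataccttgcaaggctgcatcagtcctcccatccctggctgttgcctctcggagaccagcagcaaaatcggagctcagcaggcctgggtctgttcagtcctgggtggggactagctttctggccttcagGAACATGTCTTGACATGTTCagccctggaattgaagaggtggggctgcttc
Cdkn1a, downstream start site, chr17:29093519-29093768, + strand: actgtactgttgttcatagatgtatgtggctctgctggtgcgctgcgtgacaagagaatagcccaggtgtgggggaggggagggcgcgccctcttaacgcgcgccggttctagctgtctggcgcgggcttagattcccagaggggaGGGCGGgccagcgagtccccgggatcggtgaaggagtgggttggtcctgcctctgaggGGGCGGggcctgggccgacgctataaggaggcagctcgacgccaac
Cdkn2c, upstream start site, chr4:109666757-109667006, - strand: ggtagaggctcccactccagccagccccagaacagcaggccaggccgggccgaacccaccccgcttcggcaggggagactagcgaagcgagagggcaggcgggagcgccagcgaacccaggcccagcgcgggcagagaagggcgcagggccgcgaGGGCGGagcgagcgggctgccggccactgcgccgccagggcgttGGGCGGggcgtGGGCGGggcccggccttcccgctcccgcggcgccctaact
Cdkn1b, chr6:134920151-134920400, + strand: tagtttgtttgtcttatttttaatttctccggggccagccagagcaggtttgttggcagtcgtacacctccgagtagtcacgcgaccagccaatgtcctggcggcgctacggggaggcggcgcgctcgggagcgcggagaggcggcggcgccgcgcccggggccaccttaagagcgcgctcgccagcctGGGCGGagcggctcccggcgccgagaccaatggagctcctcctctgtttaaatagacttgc

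The capitals in the first window, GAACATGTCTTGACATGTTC at positions -51 to -32 from the start site, match the full p53 site with at most 1 mismatch and both cores intact, a form searched after the exact site was found in 0 of the 10 windows. Of 32851 windows in the table, 0.0548% held the former and 0.00913% the latter. The capitals in the other sequences are GC boxes, GGGCGG on either strand, which 35.7% of all windows held. Their number was 2 in the downstream Cdkn1a window, 3 in the printed part of the upstream Cdkn2c window and 1 in that of Cdkn1b. The window at the downstream Cdkn2c start site, not printed here, held 0 GC boxes and 0 of the other motifs searched. The E2F motif, searched as TTTCCCGC, TTTGGCGC, TTTCGCGC and TTTGCCGC on both strands, was found among these genes in 1 window of Cdkn2a (2.26% of all windows), and the CHR motif TTTGAA in 1 window of Cdkn2b (17.9%). The AP-1 motif TGACTCA, held by 5.2% of all windows, was in 0 of the 10. A match is a description of letters in this window and says nothing of binding.

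Cdk4 and Cdk6, the partners of D cyclins, fell in residual cells by log2 changes of 0.68 and 0.91 (Cdk4 is named outside the rule for genes, limma adjusted p = 0.0104 and 0.0101). Of 20 genes of the CDK and RB pathway 8 fell, 0 rose and 12 were not called, with a median of -0.54 beside 0.03 over all genes. Of all genes 12.4% were called in this comparison, 7.61% lower. Besides Cdk6, the largest changes were those of Rbl1, the RB relative p107, at -1.08, and of the factors E2f1 and E2f3 at -0.90 and -0.82. Between recurrent and residual cells 4 of the 20 rose, 0 fell and 16 were not called (median 0.40 beside -0.03), beside 5.78% of all genes called. The 4 were Rbl1, higher by 1.19, Cdk6 by 0.97, Ccne2, cyclin E2, by 0.92 and E2f1 by 0.65.

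Other direct partners, named outside the rule for genes, were not called in residual against primary cells. Rb1 had a change of 0.53 (adjusted p = 0.165), Cdk2 of -0.61 (adjusted p = 0.0952), Ccne1, cyclin E1, of -0.69 (adjusted p = 0.0915), and Cdkn2d, the remaining INK4 gene, of -0.45 (adjusted p = 0.33). In recurrent against primary cells 0 of the 20 genes were called, and the median was 0.04. Only 1.8% of all genes were called there, so a count of 0 among 20 says little.

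Genes that degrade these proteins moved in both directions. Of 13 genes for turnover of D cyclins and CIP/KIP inhibitors 4 fell, 3 rose and 6 were not called in residual cells (median -0.03 beside 0.03). Over all genes 12.4% were called in this comparison. Skp2, which marks p27 for destruction, spanned 5.97 to 6.19 on primary, 4.05 to 4.65 on residual and 5.52 to 6.10 on recurrent arrays, and its cofactor Cks1b fell from 9.38 ± 0.43 to 7.06 ± 0.21. Dtl, which directs p21 to degradation during replication, fell by 2.49 (SE 0.16, limma adjusted p = 2.08e-06) and read 3.55 to 3.67 in residual cells, under background. Fbxw7, the ubiquitin ligase adaptor for cyclin E, rose by 1.17 (adjusted p = 0.000442), with residual arrays at 7.61 to 7.64 and all others at 6.07 to 6.57. From residual to recurrent cells 3 of the 13 rose (Skp2, Cks1b and Dtl, by 1.33, 1.89 and 2.06), Fbxw7 fell by 1.42, and 9 were not called. Over all genes 5.78% were called there.

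**Figure D4:**
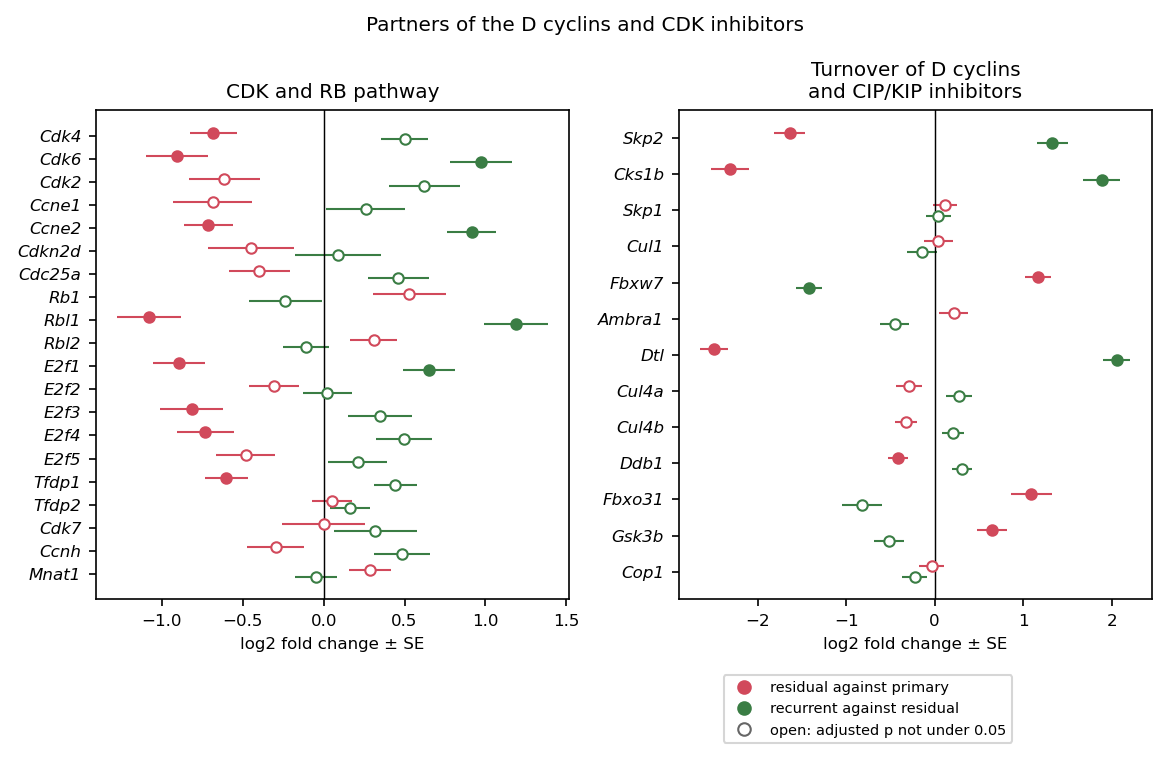
Log2 fold change ± SE (limma) of 20 genes of the CDK and RB pathway and 13 genes of protein turnover, for residual against primary cells (red) and recurrent against residual cells (green). Filled points have an adjusted p under 0.05. Dtl, Cks1b and Skp2 lie farthest to the left in residual cells at -2.49, -2.31 and -1.64, and Fbxw7 lies to the right at 1.17.

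The fall of Ccnd1, Cdkn1a and Cdkn2c went with a fall of proliferation genes and with shifts of cell type markers. Of 30 proliferation genes 27 fell in residual cells, 0 rose and 3 were not called, with a median of -2.91. Over all genes 12.4% were called in residual against primary cells, 7.61% lower and 4.81% higher. Their mean level was 7.60 to 7.81 on primary, 5.09 to 5.37 on residual and 7.21 to 7.62 on recurrent arrays. Recurrent cells were higher than residual cells in 26 of the 30, beside 5.78% of all genes called. Fibroblast markers rose in 14 of 18 cases in residual cells (mean level 6.14 to 6.73 on primary and 8.34 to 9.41 on residual arrays). Their mean level was 8.18 to 8.98 on recurrent arrays. Macrophage markers fell in 7 of 15 cases in residual cells (6.25 to 7.04 against 5.28 to 6.10). Of 16 epithelial markers 3 fell in residual cells, namely Krt8 by 1.67, Krt18 by 2.32 and the tight junction gene Cldn3 by 1.62, while Krt14, a basal keratin, and Cldn4 rose by 2.73 and 0.72. Krt8 and Krt18 were higher again in recurrent than in residual cells, by 1.37 and 1.75, while Krt14, Cldn4 and the keratin gene Krt7 were lower, by log2 fold changes of -3.28, -0.71 and -2.10. The list as a whole had medians of 0.54 in residual against primary and -0.60 in recurrent against residual cells. Its mean level was 5.35 to 5.37 on primary arrays and 5.31, 6.29 and 5.21 on residual replicates 1, 2 and 3, so only replicate 2 lay above the primary arrays. That array had 13 of the 16 markers above background, beside 7 and 8 on residual replicates 1 and 3. Lymphocyte markers (1 to 3 of 14 above background on any array), endothelial markers and adipocyte markers had 0, 0 and 1 called gene in residual against primary cells. The part of these markers in the results was not tested.

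**Figure D5:**
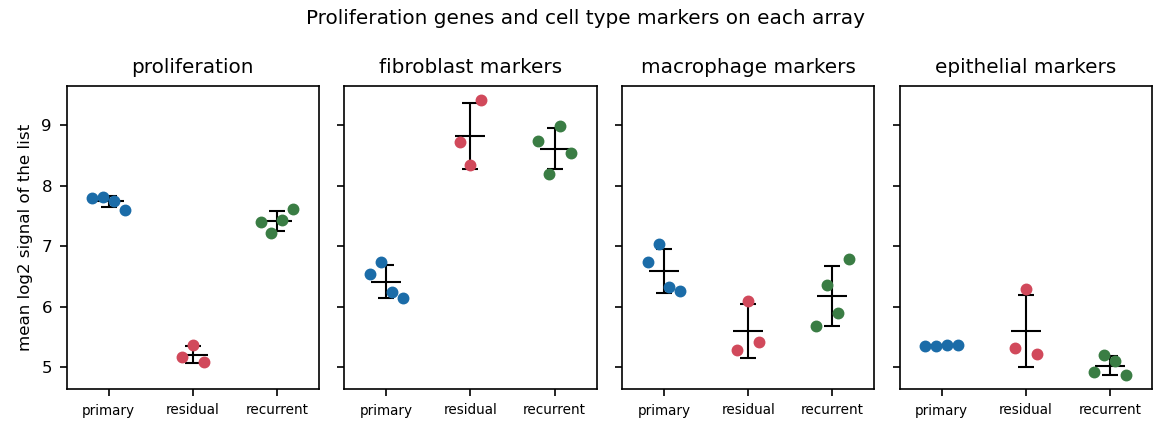
Mean log2 signal of 30 proliferation genes, 18 fibroblast, 15 macrophage and 16 epithelial markers on each array (points), with the mean ± SD of each group. Proliferation genes are low on the 3 residual arrays (5.09 to 5.37) alone, whereas fibroblast markers are at 8.18 or above on both residual and recurrent arrays.

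Of 24 other p53 targets 6 fell, 4 rose and 14 were not called in residual against primary cells (median 0.09 beside 0.03), where 12.4% of all genes were called. Mdm2, the ubiquitin ligase of p53, fell by 1.14 (limma adjusted p = 0.000525), and its residual arrays at 7.57 to 7.94 lay below the primary mean of 8.86 ± 0.14 (SD, n = 4). Fas, a death receptor, and Ddit4l, an inhibitor of mTOR signalling, rose by 1.67 and 1.73, and Btg2, an antiproliferative gene, by 1.14. Between recurrent and residual cells 1 of the 24 rose, Mdm2 by 0.72, and 4 fell, led by Ddit4l at -2.39, beside 5.78% of all genes called. The part of p53 in the fall of Cdkn1a was not tested.

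Of 24 MAPK and AP-1 genes 10 fell, 4 rose and 10 were not called in residual cells (median -0.53), beside 12.4% of all genes called. The largest changes were those of Fosl1, an AP-1 factor, at -4.64 and the EGF receptor ligands Ereg and Areg at -3.79 and -3.05. The MAPK inhibitor Spry1 followed at 2.67. From residual to recurrent cells 9 of the 24 rose and 0 fell, with Fosl1 at 4.64, beside 5.78% of all genes called. Of 16 Wnt targets 2 rose in residual against primary cells (Nkd2 by 5.96, Fzd7 by 1.78), 1 fell (Lgr6, at -1.54) and 13 were not called, where 12.4% of all genes were called.

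FOXO factors and their targets, a class that includes Cdkn1b, had 9 of 18 genes higher and 0 lower in residual cells (median 0.52). Over all genes 12.4% were called in residual against primary cells, 4.81% higher and 7.61% lower. The rises were led by Txnip, an inhibitor of glucose uptake, at 1.99 and Fbxo32, a ubiquitin ligase subunit, at 1.74. Between recurrent and residual cells 1 of them fell and 17 were not called, near the 5.78% of all genes called there. Of 19 genes of TGF-beta signalling, which is known to induce Cdkn2b, 10 rose and 0 fell in residual cells (median 0.87), among them Ltbp2, a latent TGF-beta binding protein, at 2.33, Smad6, an inhibitory Smad, at 2.18 and the ligand Tgfb3 at 1.99. From residual to recurrent cells 5 of the 19 fell and 0 rose, beside 5.78% of all genes called. Cdkn1b and Cdkn2b themselves were not called. Cdkn2b read 4.54 to 5.16, not far above the background edge, where RMA values compress differences. The part of either class in the levels of these 2 genes was not tested. Of 18 repressors of the Cdkn2 locus, mostly Polycomb proteins, 1 rose (Cbx7, from 3.88 to 5.35) and 2 fell (the methyltransferase Ezh2 at -0.92 and its partner Suz12 at -0.65) in residual cells, and 15 were not called, where 12.4% of all genes were called. Between recurrent and residual cells Ezh2 and Suz12 rose, by 0.87 and 0.53, and 16 were not called, beside 5.78% of all genes called.

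The named genes whose log2 signals followed the called members most closely over the 11 arrays were found among 13084 genes above background. For Ccnd1 they were Prc1, a protein of the spindle midzone (Pearson's r = 0.993), Nop58, a nucleolar protein (0.990), and Epha2, an ephrin receptor (0.990). For Cdkn1a they were Plaur, the urokinase receptor (0.990), Vim, the filament protein vimentin (0.985), and Hmga2, a chromatin protein (0.976). For Cdkn2c they were H2bc18, a histone gene with near-identical copies (0.983), Mtap (0.978) and Sfr1, a recombination factor (0.973). The arrays fall into 3 groups, so these values mainly reflect the group means, and they are given as a description.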

How the data were processed

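RNA of 11 samples was measured on Affymetrix arrays from biotin-labelled cRNA. The table that the authors deposited holds log2 signals of 24479 probe sets, made with RMA and R 3.0.2, per the submitters' processing notes. RMA subtracts background, equalises the arrays and combines probes into sets. The sources used here do not name the probe annotation's version. Signals were used as deposited. Depth does not apply to arrays, and their number limits the precision.

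Titles gave group and replicate. Symbols came from the platform's probe table, updated by Entrez identifier in the GRCm38.p6 table. Of the probe sets, 23281 had 1 symbol in the platform's table, 556 were named through the identifier alone, and 642 had no name and were not tested. Where a symbol had more than 1 probe set the brighter was kept, leaving 23835 genes. Limma 3.58.1 in R 4.3.3 was fitted to all 11 arrays with 3 groups (8 residual and 3.46 prior degrees of freedom), with two-sided moderated tests and Benjamini-Hochberg adjustment over all genes. The rule named every member, up to 4 called genes with the largest change of each list, the 3 genes most like each called member and the nearest neighbours. The members and lists were chosen with earlier results of these data known. On simulated data (200 of 23835 genes changed), the test recovered, for residual against primary cells, 61% of the 2-fold and 93% of the 4-fold changes and made 7 false calls. It recovered 57% of the 2-fold changes for recurrent against primary and 49% for recurrent against residual cells. Fewer genes were changed in the simulation than the 12.4% called in residual against primary cells, so these rates need not hold for the data. Alternatives were the fit, the replicate block, scalings, filters, spread estimates, array weights (statmod 1.5.0), the probe sets, the threshold and leaving out each array. Motifs were searched and plots drawn in Python 3.11.15 (matplotlib 3.10.9).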

Additional observations from a re-analysis of the deposited data

Results flagged for a closer look

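In groups of 4 arrays, 3 of the 18 member and group pairs had 1 array far from the others, where chance gives about 1 in 20. Ccnd2 read 5.64 on recurrent replicate 3 and 3.39 to 3.54 on the other recurrent arrays, a gap that was 0.935 of the group's range. Without that array Ccnd2 was still not called in any comparison.

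Cdkn2b read 4.79 on primary replicate 1 and 4.69 to 4.70 on the other primary arrays (0.889 of the range). Cdkn2a read 4.48 on primary replicate 3 and 4.32 to 4.35 on the others (0.851 of the range). For both of these genes the whole range was small, 0.10 for Cdkn2b and 0.15 for Cdkn2a.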

How the results depend on the processing

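The 9 genes in 3 comparisons gave 27 results, each recomputed under up to 22 alternatives. Of the 591 values, 586 kept their side of the threshold, 5 lost a call, 0 gained one and 0 reversed one. All 5 losses were of Cdkn2c in recurrent against residual cells, of which that at an adjusted p under 0.01 comes from the threshold itself. Ccnd2 has no value with genes kept above background on at least 3 arrays, since it did not pass that filter. Changes of called genes ran from -2.24 to -1.88 (Cdkn1a) and -1.86 to -1.59 (Cdkn2c) in residual against primary cells, and from 2.79 to 3.59 (Ccnd1), 1.45 to 1.76 (Cdkn1a) and 0.85 to 1.17 (Cdkn2c) in recurrent against residual cells. The number of genes called among the 9 stayed at 3 in residual against primary cells and 0 in recurrent against primary cells when any 1 array was left out, and was 2 to 3 in recurrent against residual cells.

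Counts over all genes moved more. At an adjusted p under 0.01 residual cells had 1375 and recurrent cells 142 against primary cells, in place of 2960 and 430, and recurrent against residual cells gave 521 in place of 1377. A fit on the compared groups alone gave 609 for the last. Leaving out 1 array gave, in the same order, 2228 to 3073, 203 to 420 and 936 to 1325. Without primary replicates 1, 2, 3 or 4, recurrent against primary cells gave 207, 225, 211 and 203. The cause of these moves was not tested. Replicate numbers are shared between groups. The deviations of same-numbered arrays of different groups correlated at -0.08 to 0.02, and those of other-numbered arrays at -0.06 to 0.08. Deviations from means of 3 or 4 arrays cannot decide whether same-numbered arrays share a mouse or batch, and the sources used here do not say. With the number as a replicate block the counts were 2198, 277 and 872, and no call among the 9 genes changed.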

Other observations

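Cdkn1c is imprinted, and of 22 imprinted growth genes 3 rose, 0 fell and 19 were not called in residual against primary cells, where 12.4% of all genes were called. Mest, a gene expressed from the paternal copy, went from 4.31 ± 0.52 to 7.60 ± 1.15 (SD, n = 4 and 3) and read 7.76 ± 0.53 in recurrent cells (n = 4). Dcn, the proteoglycan decorin, which the fibroblast list also holds, rose by 2.68 in residual and 2.74 in recurrent against primary cells (limma adjusted p = 0.000656 and 0.00171). Peg3, a zinc finger gene, rose by 1.03 in residual cells and fell by 1.00 in recurrent against residual cells (adjusted p = 0.00316 and 0.00728). Kcnq1 and Slc22a18, on either side of Cdkn1c, read 3.48 to 3.89 and 3.72 to 4.00 as group means, and each array's value lay under the background edge of that array.

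Of 32 genes that neighbour the 9 members, 5 fell and 0 rose in residual against primary cells, where 12.4% of all genes were called. Besides Mtap they included Bysl, a ribosome assembly gene beside Ccnd3, which was lower by a log2 fold change of -1.15 (limma adjusted p = 0.000651). LTO1, beside Ccnd1 and needed for maturation of an iron-sulphur protein of the ribosome pathway, was lower by a log2 fold change of -0.94 (adjusted p = 0.0105), while Fgf15 and Tpcn2 were not called (adjusted p = 0.597 and 0.38). Of those beside Cdkn2c, Rnf11, a ubiquitin ligase, was lower by -1.07 in residual cells and stayed lower, by -1.23, in recurrent cells (adjusted p = 0.00548 and 0.00658). Faf1 was lower by -0.55 in residual cells (adjusted p = 0.0478). None of the 4 neighbours of Cdkn1a was called in any comparison.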
